A study of Mus musculus with 9 samples.

Results

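Potassium channel genes were followed in RNA bound to the ribosomes of D1 medium spiny neurons (MSNs), the dopamine receptor D1 neurons that carry the direct pathway out of the striatum. The group was made of every protein-coding gene whose symbol starts with Kcn, 94 of the 21620 protein-coding genes in the files. Polyribosomes carrying a hemagglutinin-tagged subunit (RiboTag) had been precipitated from the dorsal striatum of 28-day-old (P28) mice of the C57BL/6 background, and their RNA was sequenced. The labels call the cells enriched D1 MSNs. There were 3 groups of 3 libraries: D1-Cre-flTrkB-RT mice with stereotypy, which is repetitive behaviour, D1-Cre-flTrkB-RT mice without stereotypy, and D1-Cre-RT control mice. All groups carried D1-Cre and the RiboTag allele, and the first 2 groups carried the floxed allele of TrkB, the receptor of the neurotrophin BDNF, which Cre deletes in cells that express D1-Cre. Cre in these lines is driven by the D1 receptor gene, which is also active in neurons outside the dorsal striatum, so the deletion need not be limited to the tissue sampled. The labels call the libraries biological triplicates and do not say how many mice went into each.

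Potassium channels let potassium leave the neuron and set its resting voltage, its threshold and the shape and timing of its spikes. In MSNs, inward rectifiers of the Kir2 type hold the cell near a very negative resting voltage, A-type and slowly inactivating Kv channels delay the first spike, and Kv7 channels carry the M-current that restrains repeated firing. Silent Kv subunits form no channel alone and modify Kv2 channels, and auxiliary subunits (KChIP, Kv beta, BK beta) alter how the pore-forming subunits reach the membrane and open.

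Levels are in CPM, the reads of a gene scaled to a common library total, and the recovered totals ran from 27103152 to 40578512 reads per library. Ntrk2, the gene of TrkB, stood at 34.3, 43.9 and 40.7 CPM in the stereotypy libraries, 23.4, 14.1 and 19.2 CPM in the no stereotypy libraries, and 319, 385 and 487 CPM in the control libraries, so the 6 libraries of the floxed genotype lay below the 3 controls. The D1 marker Drd1 was high in all libraries (515 to 955 CPM), and the summed level of 9 D1 MSN markers was 2349 to 2446 CPM with stereotypy, 1580 to 1954 CPM without it and 1902 to 2576 CPM in the controls. Markers of other cells were also present. The sum of 5 D2 MSN markers was 259 to 424, 597 to 1050 and 443 to 1433 CPM in the same order of groups. Cortical excitatory markers (6) summed to 156 to 281, 579 to 1423 and 271 to 848 CPM, and interneuron markers (10) to 232 to 409, 353 to 546 and 231 to 535 CPM. Astrocyte markers (12) summed to 645 to 673, 452 to 567 and 454 to 561 CPM. Much of this sum was Slc4a4, which averaged 394, 253 and 275 CPM, and Slc1a2, which averaged 179, 176 and 187 CPM. In limma, at an adjusted p of 0.05, 6 of the 12 were higher and 0 lower with stereotypy than in the controls. Of all genes tested 3.58% were higher and 1.53% lower. The third no stereotypy and the third control library had the highest sums of cortical and D2 MSN markers in their groups, as the plot of marker sums shows. In ribosome-bound RNA of a tissue, fewer cells of a type and less RNA per cell cannot be told apart.

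**Figure D1:**
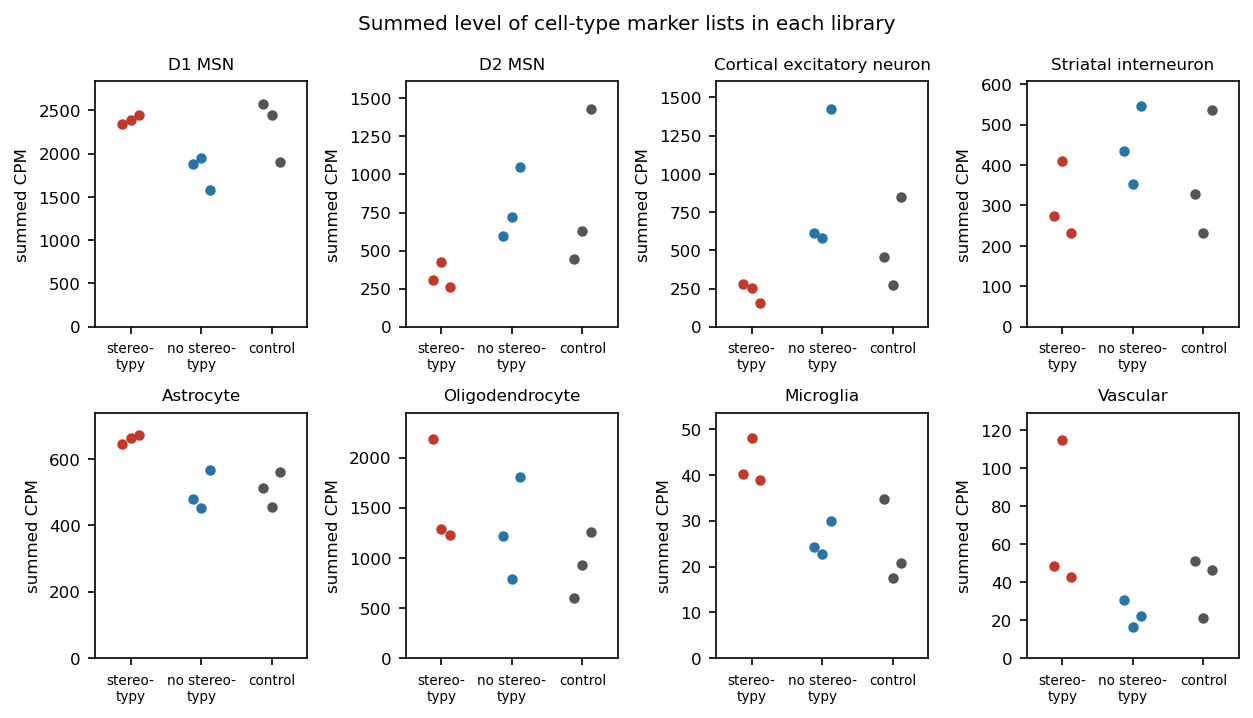
Summed CPM of 8 lists of cell-type markers on linear axes that start at 0, with 1 point per library and the groups stereotypy, no stereotypy and control from left to right. The stereotypy libraries have the highest astrocyte sums (645 to 673 CPM), of which Slc4a4 is the largest part (mean 394 CPM). Their cortical sums (156 to 281 CPM) lie below those of the no stereotypy libraries (579 to 1423 CPM).

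Of the 94 genes, 67 had at least 1 CPM in at least 3 libraries and were tested. Kcnh8 and Kcnj16 reached 1 CPM in fewer libraries and were not tested. The other 25 stayed below 1 CPM in every library and count as not measured: Kcna7, Kcna10, Kcne1, Kcne1l, Kcne2, Kcne3, Kcne4, Kcnj1, Kcnj8, Kcnj13, Kcnj14, Kcnj15, Kcnk5, Kcnk7, Kcnk10, Kcnk15, Kcnk16, Kcnk18, Kcnmb1, Kcnmb2, Kcnmb3, Kcnn4, Kcnq1, Kcnrg and Kcnv2. Among these Kcna7, Kcnj15 and Kcnk16 had 0 reads in all 9 libraries, where 3 reads, the limit a count of 0 allows, equal 0.0739 to 0.111 CPM, counting error only. By class, 15 of 17 pore-forming Kv1 to Kv4 genes, 9 of 10 silent Kv modifiers, 4 of 5 Kv7 genes and 7 of 8 Eag, Erg and Elk genes were tested. The same held for 9 of 15 inward rectifiers, 8 of 14 two-pore genes, 7 of 8 calcium- and sodium-activated genes and 8 of 16 auxiliary subunits, and Kcnrg, a soluble regulator of Kv channels, was not measured.

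Per kilobase of exon, the inward rectifier Kcnj4 (Kir2.3) had the highest level of the family, with 186 ± 12.4 CPM per kb with stereotypy, 231 ± 26.2 CPM per kb without it and 224 ± 57.3 CPM per kb in the controls (SD, n = 3 libraries per group here and below). The auxiliary subunit Kcnip2 (KChIP2) followed with 174 ± 14.0 CPM per kb with stereotypy, 183 ± 20.8 CPM per kb without it and 138 ± 23.0 CPM per kb in the controls. In the controls the order went on with the Kv beta subunits Kcnab2 (93.0 CPM per kb) and Kcnab1 (70.4 CPM per kb) and the A-type channel Kcnd2 (Kv4.2, 55.1 CPM per kb). Ranges of the control libraries did not overlap between neighbours from Kcnj4 down to Kcnd2, and from Kcnd2 downward through the 29 highest genes each neighbour overlapped the next. Among the other classes, high genes were the two-pore channel Kcnk2 (TREK-1, 48.5 CPM per kb) with Kcnk1 (TWIK-1) close behind (47.7), Kcnh3 (Elk2, 43.5), the silent subunit Kcnf1 (34.0) and the sodium-activated channel Kcnt1 (Slack, 17.3 CPM per kb in the controls).

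**Figure D2:**
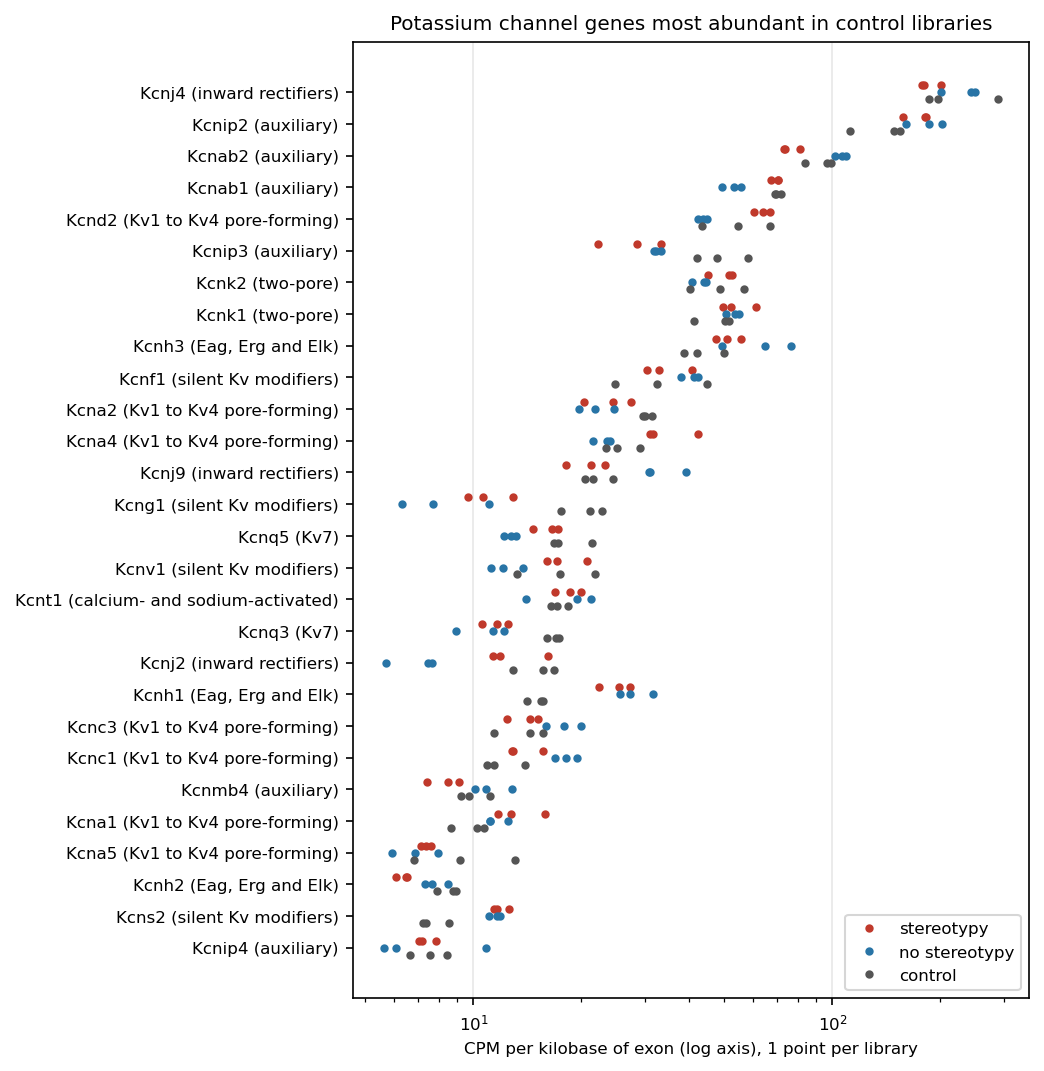
Level of 28 of the 30 potassium channel genes that are highest in the controls, in CPM per kilobase of exon on a log axis, with 1 point per library and the groups drawn from top to bottom within a row as stereotypy, no stereotypy and control. Kcnj4 (186 to 290 CPM per kb in the controls) and Kcnip2 (112 to 154) lead.

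The first comparison asked which of these genes differ by genotype on average, so both TrkB-deleted groups were set against the control. In limma, 10 of 67 passed an adjusted p of 0.05, 4 higher and 6 lower, against 5.72% of the 13695 genes tested (3.67% higher and 2.05% lower). The higher genes were Kcng2, Kcnh1, Kcns2 and Kcnc1, and the lower ones were Kcng1, Kcnip3, Kcnj2, Kcnq3, Kcna2 and Kcnq5. The median log2 change was 0.099 over the 67 and 0.040 over all tested genes. A model that also held glial and vascular markers called 1 of 67 (Kcnh1), against 0.591% of all tested genes.

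Each TrkB-deleted group was then set against the same control libraries by itself, which these 2 comparisons share. With stereotypy 7 of 67 passed against a background of 5.1% (3.58% higher and 1.53% lower), 3 higher (Kcnh1, Kcnb2 and Kcns2) and 4 lower (Kcng1, Kcnip3, Kcnq3 and Kcnh2), with a median of -0.085 over the 67 and 0.055 over all genes. Without stereotypy 12 passed against a background of 6.77% (3.76% higher and 3.01% lower), 5 higher (Kcng2, Kcnh1, Kcnj9, Kcnc1 and Kcns2) and 7 lower (Kcng1, Kcnj2, Kcnq3, Kcnip3, Kcnq5, Kcna2 and Kcnab1), with a median of 0.19 over the 67 and 0.028 over all genes. Once glial and vascular markers entered the limma model, the stereotypy comparison called 0 of 67 (24 had an unadjusted p under 0.05) and 11 of all 13695 genes. With no such covariate edgeR called 7 of 67, against 4.70% of all genes, and DESeq2 10 of 67, against 11.1%. The stereotypy libraries were the ones with the highest astrocyte sums, and the part of those markers in the calls was not tested. The mean log2 level of the glial and vascular markers was 3.08 to 3.48 in the stereotypy libraries and 2.40 to 2.96 in all others. This covariate and the stereotypy group are thus hard to tell apart, and the loss of calls decides nothing about the markers.

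The comparison of stereotypy with no stereotypy addresses what differs between mice of the same genotype. Their remaining Ntrk2 differed too, with 39.6 ± 4.85 CPM with stereotypy and 18.9 ± 4.67 CPM without it (limma, adjusted p = 0.0206). The part of this difference in the calls was not tested. In this comparison 12 of 67 genes passed, 5 higher and 7 lower, against a background of 10.2% (6.61% higher and 3.6% lower). Kcnj2, Kcna4, Kcnd2, Kcnn3 and Kcnab1 were higher with stereotypy, and Kcnj6, Kcng2, Kcnk4, Kcnk3, Kcnj9, Kcnn1 and Kcnab2 were lower. The median log2 difference was -0.18 over the 67 and 0.018 over all genes, and 33 of 67 genes had groups that did not overlap, against a background of 38.3%, with 9 higher (background 20.8%) and 24 lower (background 17.5%). Without stereotypy library 2 or 3 or no stereotypy library 1 or 2, 0 of 67 passed in limma (25 to 30 had an unadjusted p under 0.05) and at most 1 of all 13695 genes did. Once markers of other neurons (interneuron, cortical and D2 MSN lists) entered the model, 0 of 67 passed as well (19 had an unadjusted p under 0.05). Of all 13695 genes 0 passed in that model. The mean log2 level of these markers was 3.63 to 4.15 in the stereotypy and 4.82 to 5.56 in the no stereotypy libraries. That covariate and the group are thus hard to tell apart, and the loss of calls decides nothing about the markers. In the comparison with all libraries edgeR called 16 of 67, against 9.75% of all genes, and DESeq2 21 of 67, against 17.1%. limma's F test over the 3 groups called 21 of 67, against 14% of all genes.

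**Figure D3:**
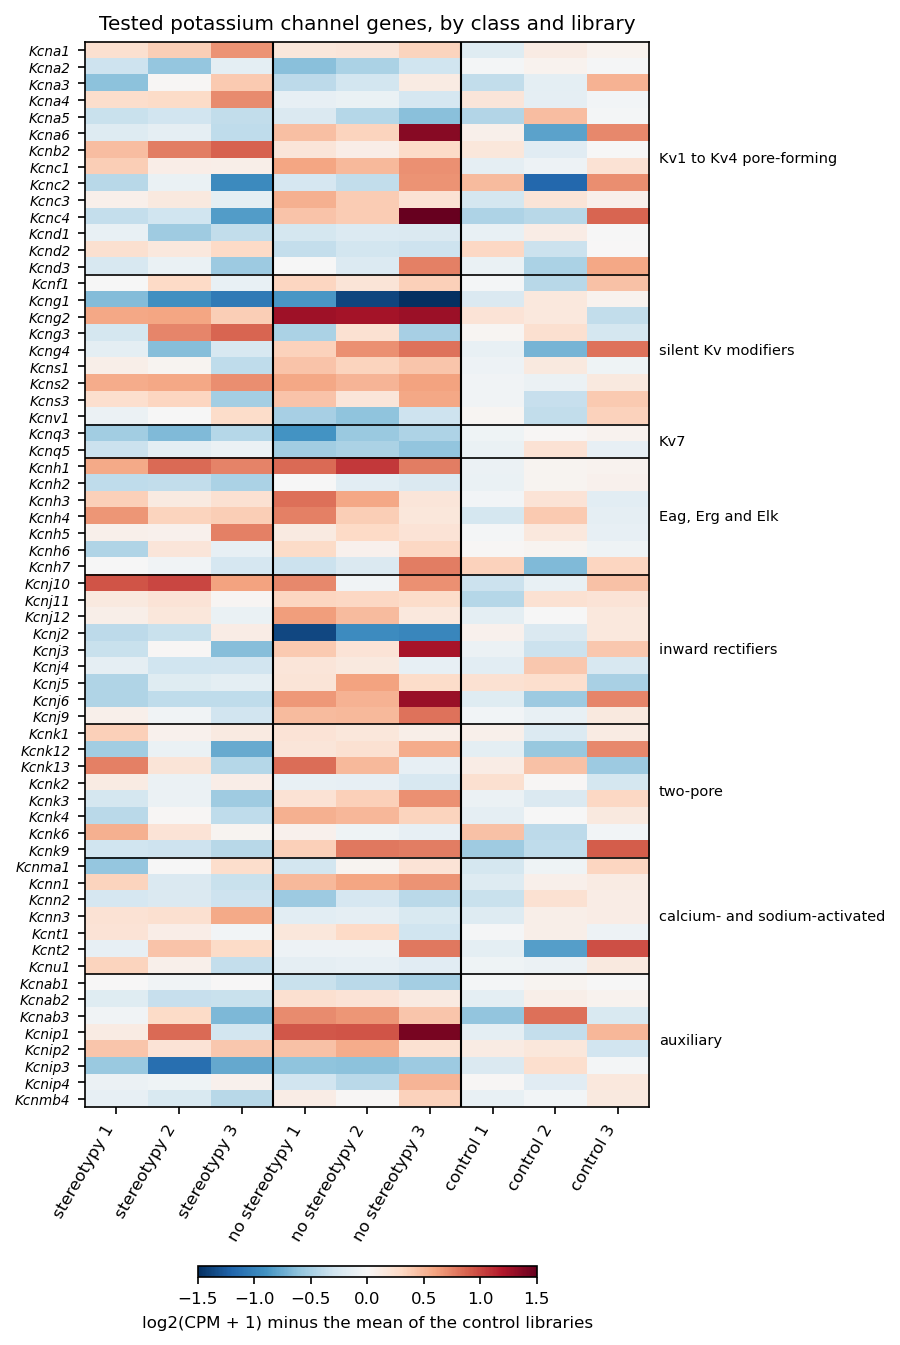
Each row is 1 of 64 of the 67 tested genes and each column 1 library, stereotypy left, no stereotypy in the middle and control right. The colour is log2(CPM + 1) minus the mean of the control libraries, cut at 1.5 in either direction. Rows such as Kcnh1 and Kcns2 are red, and Kcng1 and Kcnip3 blue, in all 6 libraries of the TrkB-deleted groups.

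Among the Eag, Erg and Elk channels, a voltage-gated family named after a fly mutant, Kcnh1 rose in both TrkB-deleted groups. Kcnh1 (ENSMUSG00000058248, chromosome 1, 192190774 to 192510159) encodes the delayed rectifier Eag1. It had 164, 200.2 and 186 CPM in the stereotypy libraries, 199.8, 231 and 188 CPM in the no stereotypy libraries, and 103, 113 and 115 CPM in the control libraries. All 6 libraries of the TrkB-deleted groups lay above all controls, and the 2 deleted groups overlapped. The log2 change was 0.81 (SE 0.0905, adjusted p = 0.000778) for both groups, 0.73 (SE 0.10, adjusted p = 0.00562) with stereotypy and 0.89 (SE 0.10, adjusted p = 0.00115) without it. This call for both groups held under each of the 21 alternatives, with an adjusted p of 0.0114 at most. In the model that also held glial and vascular markers the stereotypy value was 0.86 (adjusted p = 0.130). For Kcnh1 the log2 difference between the deleted groups was -0.17 (SE 0.10, adjusted p = 0.304) and did not pass.

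Kcnh2 (ENSMUSG00000038319, chromosome 5, 24319589 to 24351604), the gene of Erg1, which carries a repolarizing current in heart, had 31.5, 31.7 and 29.5 CPM in the stereotypy libraries, 41.1, 37.1 and 35.5 CPM in the no stereotypy libraries, and 38.4, 42.4 and 43.3 CPM in the control libraries. The stereotypy libraries lay below those of both other groups, which overlapped each other. It fell with stereotypy by 0.41 on the log2 scale (adjusted p = 0.0386). For Kcnh2 this call was lost without stereotypy library 1, 2 or 3, no stereotypy library 1 or 2 or control library 2 or 3 (adjusted p = 0.0563 to 0.118). Without stereotypy the change was -0.12 (SE 0.0975, adjusted p = 0.502), and between the deleted groups it was -0.29 (SE 0.0975, adjusted p = 0.0829). The family's highest gene per kilobase, Kcnh3, had 320.5, 273 and 293 CPM in the stereotypy libraries, 442, 373 and 284 CPM in the no stereotypy libraries, and 242, 287 and 222 CPM in the control libraries, with all 3 groups overlapping and an adjusted p of 0.0795 in the F test. Of the 7 tested genes of this class, 1 was higher and 0 lower for both groups against control, and 0 of 7 passed between the deleted groups in limma (1 had an unadjusted p under 0.05), with edgeR calling 0 and DESeq2 calling Kcnh2 there (log2 difference -0.32, adjusted p = 0.0324).

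For Kcnh1, shown because its call for both groups held under each alternative, the 300 bases around the annotated start (250 before and 50 from the start on, RefSeq, GRCm38.p6, chr1:192190527-192190826, plus strand) hold none of the 3 motifs that were searched on both strands, CRE (TGACGTCA), EGR (GCGGGGGCG) and E-box (CACGTG), and are printed in lower case throughout.
Kcnh1: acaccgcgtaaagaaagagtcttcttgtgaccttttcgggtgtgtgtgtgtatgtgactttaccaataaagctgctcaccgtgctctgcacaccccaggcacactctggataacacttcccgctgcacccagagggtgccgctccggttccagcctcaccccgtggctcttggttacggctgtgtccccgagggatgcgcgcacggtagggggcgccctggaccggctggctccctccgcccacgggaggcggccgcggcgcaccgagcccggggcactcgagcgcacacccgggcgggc

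The silent Kv modifiers moved in both directions: of 9 tested, 2 were higher and 1 lower for both TrkB-deleted groups against control. Kcns2 (ENSMUSG00000050963, chromosome 15, 34837355 to 34843407), the gene of Kv9.2, had 63.6, 64.9 and 70.3 CPM in the stereotypy libraries, 65.0, 61.6 and 66.1 CPM in the no stereotypy libraries, and 41.3, 40.5 and 47.6 CPM in the control libraries. All 6 libraries of the deleted groups lay above the controls, and the deleted groups overlapped. Its log2 change was 0.59 (SE 0.0810, adjusted p = 0.00280) for both groups, 0.61 (SE 0.0935, adjusted p = 0.00745) with stereotypy and 0.57 (SE 0.0935, adjusted p = 0.00678) without it, and the difference between the deleted groups was 0.043 (adjusted p = 0.794). With the glial and vascular covariate the value for both groups was 0.53 (adjusted p = 0.0886).

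Kcng1 (ENSMUSG00000074575, chromosome 2, 168260117 to 168281736), the gene of Kv6.1, was the member with the largest fall for both groups. It had 58.3, 48.0 and 43.6 CPM in the stereotypy libraries, 49.8, 34.8 and 28.5 CPM in the no stereotypy libraries, and 79.3, 103 and 95.2 CPM in the control libraries. Each library of the deleted groups lay below each control, and the deleted groups overlapped each other. The log2 change was -1.09 (SE 0.16, adjusted p = 0.00416) for both groups, -0.88 (SE 0.19, adjusted p = 0.0286) with stereotypy and -1.30 (SE 0.19, adjusted p = 0.00352) without it. The call for both groups held whichever single library was left out, and with the glial and vascular covariate the value was -1.13 (adjusted p = 0.0655). The call with stereotypy was lost without stereotypy library 2 or 3 or control library 2 or 3 (adjusted p = 0.0635 to 0.107).

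Kcng2 (ENSMUSG00000059852, chromosome 18, 80294546 to 80364254), the gene of Kv6.2, was low in all groups and graded among them. It had 4.05, 4.11 and 3.36 CPM in the stereotypy libraries, 7.19, 7.03 and 7.22 CPM in the no stereotypy libraries, and 2.90, 2.77 and 1.62 CPM in the control libraries. No 2 groups overlapped: the no stereotypy libraries were highest and the controls lowest. For the mean of both groups it rose by a log2 change of 0.89 (SE 0.15, adjusted p = 0.00760) and without stereotypy by one of 1.27 (SE 0.17, adjusted p = 0.00283). With stereotypy the change was 0.51 (SE 0.17, adjusted p = 0.108), which did not pass. Between the deleted groups the log2 difference was -0.75 (SE 0.17, adjusted p = 0.0289). For Kcng2 this call was lost without stereotypy library 1, 2 or 3 or no stereotypy library 1 or 2 (adjusted p = 0.0519 to 0.107). With the covariate of other-neuron markers that difference was -1.02 (adjusted p = 0.0774).

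The most abundant modifier, Kcnf1 (Kv5.1), had 157, 194 and 146 CPM in the stereotypy libraries, 197, 181 and 202 CPM in the no stereotypy libraries, and 155, 119 and 214 CPM in the control libraries, and its groups overlapped (adjusted p = 0.427 in the F test). Kcnv1 (Kv8.1) averaged 82.4 ± 11.3 CPM with stereotypy, 56.6 ± 5.97 CPM without it and 80.2 ± 19.7 CPM in the controls, and Kcns1 (Kv9.1) averaged 13.2 ± 2.44 CPM with stereotypy, 18.6 ± 0.685 CPM without it and 14.0 ± 1.34 CPM in the controls. Neither passed in any comparison in the main limma fit. Between the deleted groups edgeR called Kcns1 and DESeq2 called both. There limma called Kcns1 with median-of-ratios rescaling and Kcnv1 with the replicate number as a block. Kcnv1 was also called without stereotypy against control by DESeq2 and by limma with that block.

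**Figure D4:**
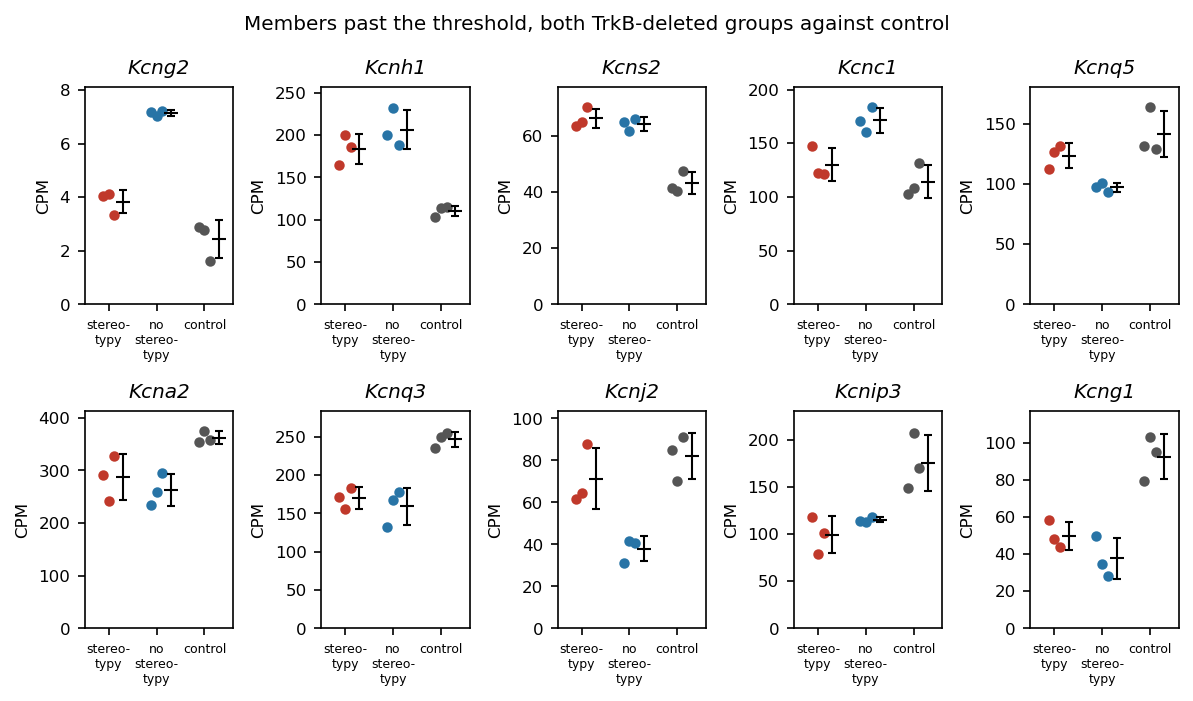
CPM of the 10 genes past the threshold for both TrkB-deleted groups against control, on linear axes that start at 0, with 1 point per library, the groups stereotypy, no stereotypy and control from left to right, and a bar for the mean and SD of each group of 3. Kcnh1, Kcns2 and Kcng2 are above the controls in all 6 libraries, and Kcng1, Kcnip3, Kcnq3 and Kcna2 below them.

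Of the Kv7 genes, the subunits of the M-current, 2 of 4 tested fell for both groups against control and 0 rose. Kcnq3 (ENSMUSG00000056258, chromosome 15, 65986387 to 66286642), which encodes a neuronal M-current subunit, had 171, 156 and 183 CPM in the stereotypy libraries, 132, 167 and 178 CPM in the no stereotypy libraries, and 236, 249.7 and 255 CPM in the control libraries. The 6 libraries of the deleted groups were all lower than the controls. The log2 change was -0.59 (SE 0.0994, adjusted p = 0.00751) for both groups, -0.54 (SE 0.11, adjusted p = 0.0286) with stereotypy and -0.64 (SE 0.11, adjusted p = 0.00934) without it. The call for both groups held without any single library, and with the glial and vascular covariate the value was -0.49 (adjusted p = 0.179). The call with stereotypy was lost without stereotypy library 1, 2 or 3 or control library 2 or 3 (adjusted p = 0.0542 to 0.117).

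Kcnq5 (ENSMUSG00000028033, chromosome 1, 21398403 to 21961942), another M-current subunit, had 112, 127 and 132 CPM in the stereotypy libraries, 97.7, 101 and 93.5 CPM in the no stereotypy libraries, and 132, 164 and 129 CPM in the control libraries. The no stereotypy libraries lay below both other groups, and the stereotypy and control libraries overlapped. It fell without stereotypy by 0.53 on the log2 scale (adjusted p = 0.0154). For Kcnq5 this call was lost without no stereotypy library 1 (adjusted p = 0.0642). With stereotypy the change was -0.19 (SE 0.11, adjusted p = 0.305), and the call for both groups, -0.36 (SE 0.0925, adjusted p = 0.0478), was lost without stereotypy library 1, 2 or 3, no stereotypy library 1, 2 or 3 or control library 1 or 2 (adjusted p = 0.0596 to 0.135).

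Among the pore-forming Kv1 to Kv4 channels, 1 of 15 was higher and 1 lower for both groups against control, and 2 were higher and 0 lower for stereotypy against no stereotypy. The lower one was Kcna2 (ENSMUSG00000040724, chromosome 3, 107101146 to 107115005), the gene of Kv1.2, a subunit of the slowly inactivating current of MSNs. It had 292, 242 and 328 CPM in the stereotypy libraries, 234, 259 and 294 CPM in the no stereotypy libraries, and 354, 375 and 357 CPM in the control libraries. The controls were highest, with no overlap with either deleted group. The log2 change was -0.41 (SE 0.10, adjusted p = 0.0454) for both groups, -0.34 (SE 0.12, adjusted p = 0.114) with stereotypy and -0.47 (SE 0.12, adjusted p = 0.0413) without it. The call for both groups was lost without stereotypy library 1 or 2, no stereotypy library 1 or 2 or control library 1, 2 or 3 (adjusted p = 0.0820 to 0.116), and the call for the no stereotypy group without stereotypy library 1, no stereotypy library 1 or 2 or control library 1, 2 or 3 (adjusted p = 0.0643 to 0.170).

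Kcnc1 (ENSMUSG00000058975, chromosome 7, 46396497 to 46438704), the gene of Kv3.1, which is best known from fast-spiking interneurons, had 147, 122 and 121 CPM in the stereotypy libraries, 171, 160.1 and 183 CPM in the no stereotypy libraries, and 103, 108 and 132 CPM in the control libraries. The no stereotypy libraries were above both other groups, and the stereotypy and control libraries overlapped. It rose without stereotypy by a log2 change of 0.59 (SE 0.12, adjusted p = 0.0139). For Kcnc1 this call was lost without no stereotypy library 1 or control library 1 (adjusted p = 0.0551 to 0.0595). With stereotypy the change was 0.19 (SE 0.12, adjusted p = 0.346). The call for both groups, 0.39 (SE 0.10, adjusted p = 0.0477), was lost without stereotypy library 1, 2 or 3, no stereotypy library 1, 2 or 3 or control library 1 or 2 (adjusted p = 0.0608 to 0.162), and neither edgeR nor limma with median-of-ratios rescaling (adjusted p = 0.0710) made it. The interneuron marker sum was 353 to 546 CPM without stereotypy and 231 to 535 CPM in the controls, and its part in this change was not tested for single cell types.

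Kcnb2 (ENSMUSG00000092083, chromosome 1, 15287254 to 15723750), the gene of the delayed rectifier Kv2.2, had 12.5, 15.7 and 17.0 CPM in the stereotypy libraries, 10.1, 9.52 and 10.9 CPM in the no stereotypy libraries, and 10.1, 7.75 and 8.74 CPM in the control libraries. The stereotypy libraries lay above both other groups. It rose with stereotypy by a log2 change of 0.70 (SE 0.15, adjusted p = 0.0273), a call lost without stereotypy library 2 or 3 or control library 2 or 3 (adjusted p = 0.0578 to 0.110), and its change without stereotypy was 0.19 (SE 0.15, adjusted p = 0.497).

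The A-type channel genes Kcna4 and Kcnd2 passed between the deleted groups in limma, both higher with stereotypy than without. Kcnc4, of the same class, went the other way (log2 difference -1.29, SE 0.39, adjusted p = 0.0576 in limma), and DESeq2 called it. Kcna4 (ENSMUSG00000042604, chromosome 2, 107290639 to 107298502), the gene of Kv1.4, had 149.8, 153 and 204 CPM in the stereotypy libraries, 114, 116 and 104 CPM in the no stereotypy libraries, and 141, 113 and 121 CPM in the control libraries. The stereotypy libraries were above both other groups, and the other two overlapped. The log2 difference between the deleted groups was 0.58 (SE 0.13, adjusted p = 0.0258). For Kcna4 this call was lost without stereotypy library 2 or 3 or no stereotypy library 1 or 2 (adjusted p = 0.0696 to 0.0901). Against control the change with stereotypy was 0.42 (SE 0.13, adjusted p = 0.0809) and without it -0.16 (SE 0.13, adjusted p = 0.510).

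Kcnd2 (ENSMUSG00000060882, chromosome 6, 21215503 to 21729805), the gene of Kv4.2 and the most abundant gene of the class, had 329, 313 and 345 CPM in the stereotypy libraries, 217, 231 and 224 CPM in the no stereotypy libraries, and 346, 224 and 281 CPM in the control libraries. The stereotypy libraries lay above the no stereotypy ones, and the controls spanned both groups. The log2 difference was 0.55 (SE 0.13, adjusted p = 0.0314). For Kcnd2 this call was lost without stereotypy library 1, 2 or 3 or no stereotypy library 1, 2 or 3 (adjusted p = 0.0515 to 0.117). The size was 0.60 (adjusted p = 0.106) with other-neuron markers as a covariate. Against control the change was 0.23 (SE 0.13, adjusted p = 0.305) with stereotypy and -0.32 (SE 0.13, adjusted p = 0.188) without it. Its relative Kcnd3 (Kv4.3) averaged 16.0 ± 2.58 CPM with stereotypy, 23.6 ± 9.18 CPM without it and 20.7 ± 8.35 CPM in the controls, and did not pass (adjusted p = 0.427 in the F test).

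Of the 9 inward rectifiers tested, 1 was higher and 2 were lower with stereotypy than without, and for both groups against control 1 was lower. Kcnj2 (ENSMUSG00000041695, chromosome 11, 111066164 to 111076821), the gene of Kir2.1, had 61.7, 64.4 and 88.0 CPM in the stereotypy libraries, 31.1, 41.8 and 40.8 CPM in the no stereotypy libraries, and 85.0, 70.0 and 91.1 CPM in the control libraries. The no stereotypy libraries lay below both other groups, while the stereotypy and control libraries overlapped. It fell without stereotypy by 1.10 on the log2 scale (adjusted p = 0.00390), and this call held under each of the 22 alternatives. With stereotypy the change was -0.21 (SE 0.16, adjusted p = 0.463). The log2 difference between the deleted groups was 0.89 (SE 0.16, adjusted p = 0.0206), a call lost without stereotypy library 2 or 3 or no stereotypy library 1 or 2 (adjusted p = 0.0585 to 0.0822), and with other-neuron markers as a covariate it was 1.02 (adjusted p = 0.0758). The call for both groups against control, -0.65 (SE 0.14, adjusted p = 0.0229), was lost without stereotypy library 1 or 2 or control library 1 or 3 (adjusted p = 0.0526 to 0.0831).

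The window around the start of Kcnj2, shown because Kcnj2 had the largest difference of the 5 genes called higher with stereotypy than without, holds an E-box in capitals (RefSeq, GRCm38.p6, chr11:111065914-111066213, plus strand).
Kcnj2: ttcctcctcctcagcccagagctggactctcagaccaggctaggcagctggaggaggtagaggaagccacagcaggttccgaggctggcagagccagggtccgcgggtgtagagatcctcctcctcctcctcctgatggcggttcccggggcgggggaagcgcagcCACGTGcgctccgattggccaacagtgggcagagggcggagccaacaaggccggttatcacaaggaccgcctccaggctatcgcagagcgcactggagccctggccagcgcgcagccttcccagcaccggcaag
RefSeq windows of this kind were at hand for 69 of the 94 genes (94 windows). The E-box CACGTG was in 7 of them, against 7.15% of the windows of all genes, EGR in 4 of 94, against 2.91%, and CRE in 0 of 94, against 1.79%. A match is a run of letters and shows no binding.

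Neither of the other strong inward rectifiers passed in any comparison in the main limma fit. Without the third no stereotypy and control libraries, limma called Kcnj12 for no stereotypy against control and between the deleted groups. Kcnj4 had 431, 383 and 388 CPM in the stereotypy libraries, 537, 524 and 433 CPM in the no stereotypy libraries, and 425, 625 and 399.8 CPM in the control libraries, and the stereotypy libraries lay just below the no stereotypy ones while the controls spanned both (adjusted p = 0.297 in the F test). Kcnj12 (Kir2.2) averaged 13.9 ± 1.42 CPM with stereotypy, 18.4 ± 3.08 CPM without it and 13.4 ± 1.504 CPM in the controls (adjusted p = 0.113 in the F test). Per kilobase, Kcnj2 stood at 0.071 ± 0.017 of the level of Kcnj4 with stereotypy, 0.031 ± 0.0072 without it and 0.071 ± 0.024 in the controls.

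Kcnj9 (ENSMUSG00000038026, chromosome 1, 172320501 to 172329318), the gene of GIRK3, a channel opened by G-proteins, had 99.8, 91.2 and 77.5 CPM in the stereotypy libraries, 132, 134 and 168 CPM in the no stereotypy libraries, and 92.2, 87.9 and 105 CPM in the control libraries. Both other groups lay below the no stereotypy libraries. It rose without stereotypy by a log2 change of 0.59 (SE 0.13, adjusted p = 0.0186), a call lost without control library 1 (adjusted p = 0.0639), and its change with stereotypy was -0.089 (SE 0.13, adjusted p = 0.699). For Kcnj9 the log2 difference between the deleted groups was -0.68 (SE 0.13, adjusted p = 0.0206), a call lost without stereotypy library 2 or 3 or no stereotypy library 1 or 2 (adjusted p = 0.0622 to 0.0823), and -0.41 (adjusted p = 0.116) with other-neuron markers as a covariate.

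Kcnj6 (ENSMUSG00000043301, chromosome 16, 94748636 to 94997701), the gene of GIRK2, was near 1 CPM in several libraries, with 1.18, 1.29 and 1.29 CPM in the stereotypy libraries, 3.67, 3.28 and 6.28 CPM in the no stereotypy libraries, and 1.61, 1.05 and 3.92 CPM in the control libraries. The stereotypy libraries lay below the no stereotypy ones, and the highest values were in the third no stereotypy library and the third control library, those with the most cortical markers. For Kcnj6 the log2 difference between the deleted groups was -1.22 (SE 0.30, adjusted p = 0.0331). For Kcnj6 this call was lost without stereotypy library 1, 2 or 3 or no stereotypy library 1, 2 or 3 (adjusted p = 0.0720 to 0.108). With other-neuron markers as a covariate it was -0.37 (adjusted p = 0.345). Kcnj3 (GIRK1) averaged 27.0 ± 6.38 CPM with stereotypy, 54.3 ± 22.7 CPM without it and 34.2 ± 9.22 CPM in the controls, with its highest value of 80.3 CPM in the third no stereotypy library. Its difference between the deleted groups, -0.93 (SE 0.27, adjusted p = 0.0530), did not pass in limma, whereas edgeR and DESeq2 called it, and 31.1% of its exon bases overlap the opposite-strand gene Gm26794.

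**Figure D5:**
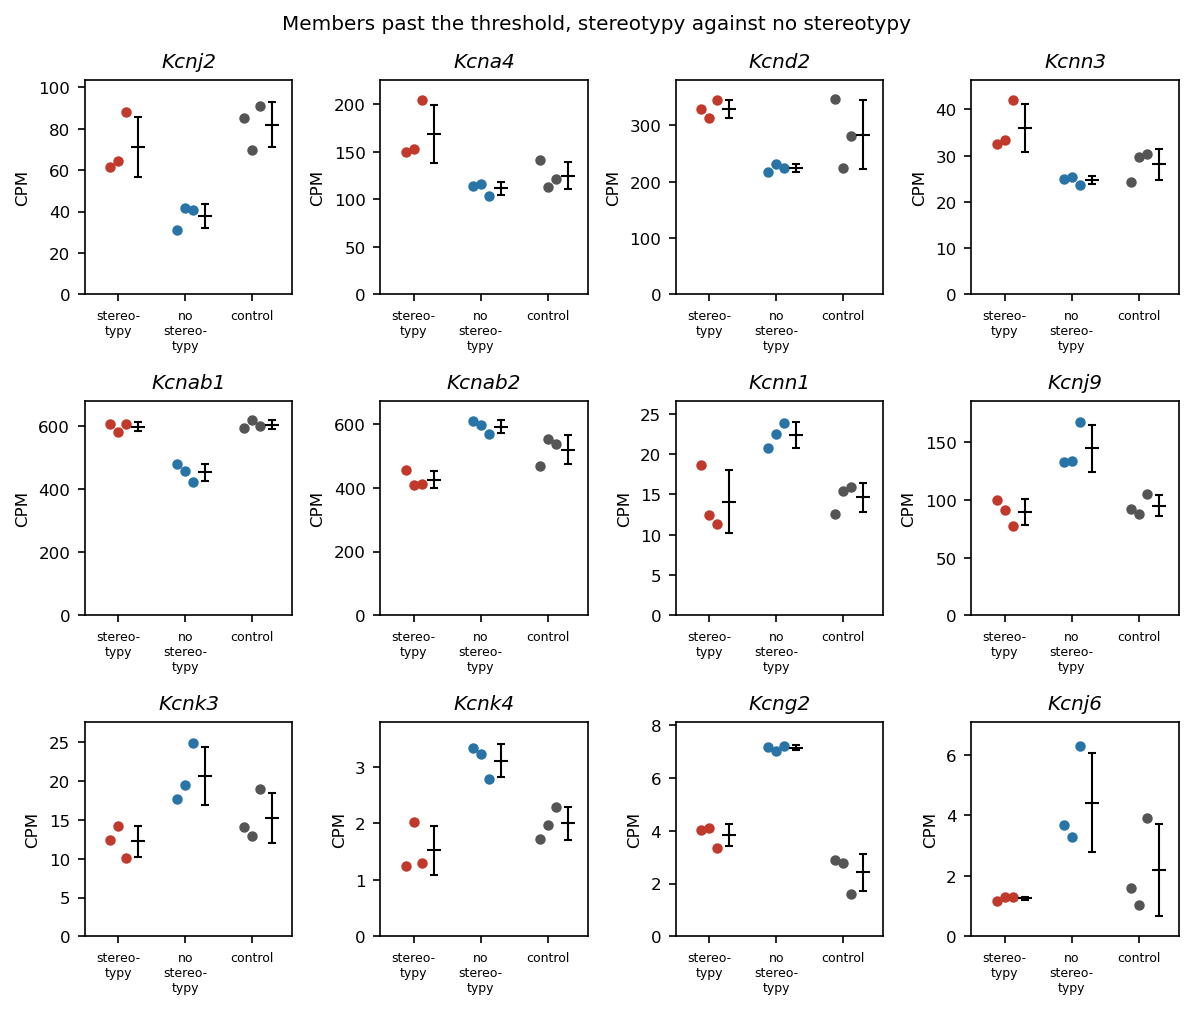
CPM of the 12 genes past the threshold for stereotypy against no stereotypy, on linear axes that start at 0, with 1 point per library, the groups stereotypy, no stereotypy and control from left to right, and a bar for the mean and SD of each group of 3. For Kcnj2, Kcnab1 and Kcnj9 the stereotypy libraries overlap the controls and the no stereotypy libraries stand apart.

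The two-pore channels, which carry resting potassium leak, had 0 of 8 genes past the threshold in limma for either deleted group or both against control (edgeR and DESeq2 also called 0, and 0, 2 and 0 had an unadjusted p under 0.05 with stereotypy, without it and for both), and 2 of 8 lower with stereotypy than without. Kcnk3 (ENSMUSG00000049265, chromosome 5, 30588170 to 30625271), the gene of the acid-sensitive TASK-1, had 12.4, 14.1 and 10.1 CPM in the stereotypy libraries, 17.7, 19.5 and 24.8 CPM in the no stereotypy libraries, and 14.1, 12.8 and 18.9 CPM in the control libraries. The stereotypy libraries lay below the no stereotypy ones, and the controls overlapped both. For Kcnk3 the log2 difference between the deleted groups was -0.71 (SE 0.18, adjusted p = 0.0359), a call lost without stereotypy library 1, 2 or 3 or no stereotypy library 1, 2 or 3 (adjusted p = 0.0707 to 0.133), and -0.25 (adjusted p = 0.376) with other-neuron markers as a covariate. Of its exon bases 5.76% overlap Gm9899 on the opposite strand (mean 21.2 CPM), so reads could be shared if strand was not used in counting.

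Kcnk4 (ENSMUSG00000024957, chromosome 19, 6923966 to 6934515), the gene of the mechanosensitive TRAAK, was low, with 1.25, 2.02 and 1.29 CPM in the stereotypy libraries, 3.33, 3.22 and 2.78 CPM in the no stereotypy libraries, and 1.72, 1.98 and 2.30 CPM in the control libraries. Its highest 3 values were those of the no stereotypy libraries. For Kcnk4 the log2 difference between the deleted groups was -0.72 (SE 0.17, adjusted p = 0.0308). For Kcnk4 this call was lost without stereotypy library 1, 2 or 3 or no stereotypy library 1 or 2 (adjusted p = 0.0620 to 0.111). It shares 13.1% of its exon bases with Catsperz on the same strand, so its level is uncertain. The most abundant genes, Kcnk1 with 137, 111 and 116 CPM in the stereotypy libraries, 122, 119 and 113 CPM in the no stereotypy libraries, and 112, 92.3 and 115 CPM in the control libraries, and Kcnk2, which averaged 245 ± 20.1 CPM with stereotypy, 213 ± 9.84 CPM without it and 239.7 ± 41.1 CPM in the controls, did not pass (adjusted p = 0.384 and 0.398 in the F test).

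Among calcium- and sodium-activated channels 0 of 7 passed in limma against control for either group or both (unadjusted p under 0.05 in 1, 2 and 1 of them with stereotypy, without it and for both), where edgeR called 0 and DESeq2 called Kcnn1 without stereotypy, and 1 was higher and 1 lower with stereotypy than without. Kcnn3 (ENSMUSG00000000794, chromosome 3, 89520164 to 89675132), the gene of SK3, a channel of the afterhyperpolarization, had 32.6, 33.3 and 42.1 CPM in the stereotypy libraries, 25.0, 25.4 and 23.7 CPM in the no stereotypy libraries, and 24.3, 29.8 and 30.3 CPM in the control libraries. The stereotypy libraries were above both other groups. For Kcnn3 the log2 difference between the deleted groups was 0.52 (SE 0.13, adjusted p = 0.0331). For Kcnn3 this call was lost without stereotypy library 2 or 3 or no stereotypy library 1, 2 or 3 (adjusted p = 0.0628 to 0.123), and with median-of-ratios rescaling of the libraries (adjusted p = 0.0515). Its relative Kcnn1 (ENSMUSG00000002908, chromosome 8, 70842049 to 70863258), the gene of SK1, had 18.6, 12.4 and 11.3 CPM in the stereotypy libraries, 20.7, 22.5 and 23.9 CPM in the no stereotypy libraries, and 12.6, 15.4 and 15.9 CPM in the control libraries. The no stereotypy libraries lay above both other groups, and the log2 difference was -0.66 (SE 0.17, adjusted p = 0.0401). For Kcnn1 this call was lost without stereotypy library 2 or 3 or no stereotypy library 1, 2 or 3 (adjusted p = 0.0786 to 0.147).

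Kcnn2 (SK2) averaged 12.8 ± 0.413 CPM with stereotypy, 11.6 ± 1.27 CPM without it and 15.7 ± 3.19 CPM in the controls (adjusted p = 0.179 in the F test). Kcnt1, the most abundant gene of the class, had 189, 176 and 160.0 CPM in the stereotypy libraries, 184, 203 and 133 CPM in the no stereotypy libraries, and 162, 175 and 156 CPM in the control libraries, with overlapping groups (adjusted p = 0.871 in the F test). The large-conductance channel gene Kcnma1 (BK) averaged 27.6 ± 8.04 CPM with stereotypy, 29.1 ± 4.95 CPM without it and 29.4 ± 6.46 CPM in the controls (adjusted p = 0.906 in the F test), and its beta subunit Kcnmb4 averaged 27.8 ± 2.90 CPM with stereotypy, 37.4 ± 4.67 CPM without it and 33.3 ± 3.27 CPM in the controls (adjusted p = 0.0903 in the F test).

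Of 8 auxiliary subunits tested, 1 fell for both groups against control, and 1 was higher and 1 lower with stereotypy than without. Kcnip3 (ENSMUSG00000079056, chromosome 2, 127456498 to 127522094) encodes KChIP3, also called DREAM, which binds Kv4 channels and can act as a calcium-dependent transcriptional repressor. It had 118, 78.7 and 102 CPM in the stereotypy libraries, 114, 113 and 118 CPM in the no stereotypy libraries, and 149, 207 and 169.7 CPM in the control libraries. None of the 6 deleted libraries reached the lowest control. The log2 change was -0.70 (SE 0.13, adjusted p = 0.0113) for both groups, -0.82 (SE 0.15, adjusted p = 0.0155) with stereotypy and -0.59 (SE 0.15, adjusted p = 0.0414) without it. The call for both groups held without any single library, and with the glial and vascular covariate the value was -0.56 (adjusted p = 0.234). The call for the stereotypy group was lost without stereotypy library 2 (adjusted p = 0.0623), and the call for the no stereotypy group without stereotypy library 3, no stereotypy library 1, 2 or 3 or control library 2 or 3 (adjusted p = 0.0614 to 0.129). The no stereotypy value was -0.53 (adjusted p = 0.0760) with the glial and vascular covariate and -0.55 (adjusted p = 0.0596) with the other-neuron covariate.

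Kcnip2, the KChIP of highest level, had 635, 549 and 631 CPM in the stereotypy libraries, 648, 700.4 and 558 CPM in the no stereotypy libraries, and 517, 536 and 389 CPM in the control libraries. All 6 libraries of the deleted groups were above the controls, yet the log2 change for both groups, 0.38 (SE 0.12, adjusted p = 0.0876), did not pass. Over the whole family 10 of 67 genes had the 6 deleted libraries wholly on one side of the controls, against a background of 9.3%, with 5 higher (6.05%) and 5 lower (3.25%). For the single comparisons the counts were 17 of 67 with stereotypy, 9 higher and 8 lower, against backgrounds of 27.7%, 18% and 9.72%, and 26 of 67 without it, 16 higher and 10 lower, against 25.5%, 14.9% and 10.6%.

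The Kv beta subunits Kcnab1 and Kcnab2, which bind Kv1 channels, moved in opposite directions between the deleted groups. Kcnab3, the other Kv beta gene tested, was lower with stereotypy than without but did not pass (log2 difference -0.74, SE 0.33, limma, adjusted p = 0.158). Kcnab1 (ENSMUSG00000027827, chromosome 3, 65109384 to 65378223) had 605, 581 and 606 CPM in the stereotypy libraries, 479, 457 and 424 CPM in the no stereotypy libraries, and 594, 619.8 and 600.0 CPM in the control libraries. The no stereotypy libraries lay below both other groups, and the stereotypy and control libraries overlapped. It fell without stereotypy by 0.42 on the log2 scale (adjusted p = 0.0110), a call that held under each of the 22 alternatives, and its change with stereotypy was -0.017 (SE 0.0774, adjusted p = 0.916). For Kcnab1 the log2 difference between the deleted groups was 0.40 (SE 0.0774, adjusted p = 0.0225). For Kcnab1 this call was lost without stereotypy library 2 or 3 or no stereotypy library 1 or 2 (adjusted p = 0.0690 to 0.0865).

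Kcnab2 (ENSMUSG00000028931, chromosome 4, 152390742 to 152477871) had 455, 408 and 411 CPM in the stereotypy libraries, 609, 595 and 568 CPM in the no stereotypy libraries, and 467, 552 and 537 CPM in the control libraries. No 2 groups overlapped, with the stereotypy libraries lowest and the no stereotypy libraries highest. For Kcnab2 the log2 difference between the deleted groups was -0.48 (SE 0.0898, adjusted p = 0.0220). For Kcnab2 this call was lost without stereotypy library 2 or 3 or no stereotypy library 1 or 2 (adjusted p = 0.0683 to 0.0855). Against control it was -0.29 (SE 0.0898, adjusted p = 0.0869) with stereotypy and 0.19 (SE 0.0898, adjusted p = 0.240) without it. The ratio of Kcnab1 to Kcnab2 per kilobase was 0.864, 0.925 and 0.958 with stereotypy, 0.510, 0.498 and 0.484 without it, and 0.826, 0.729 and 0.725 in the controls, so the 3 groups did not overlap, as a description with no test.

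Some members known from glial or vascular cells or interneurons were low. Kcnj10 (Kir4.1), the main potassium channel of astrocytes, averaged 11.5 ± 1.78 CPM with stereotypy, 8.64 ± 2.63 CPM without it and 6.04 ± 1.99 CPM in the controls, and its change with stereotypy, 0.85 (SE 0.25, adjusted p = 0.0698), did not pass in limma, whereas DESeq2 called it, as did limma with other-neuron markers as a covariate. Kcnj16, its partner in astrocytes and oligodendrocytes, was at 0.517 to 1.504 CPM with stereotypy, 0.112 to 0.542 CPM without it and 0.0307 to 0.465 CPM in the controls. Kcnj8 of pericytes reached 0.611 CPM and Kcnn4 of microglia 0.289 CPM at most, both in the second stereotypy library. Kcnk13 of microglia averaged 13.6 ± 5.81 CPM with stereotypy, 15.8 ± 5.35 CPM without it and 11.7 ± 4.15 CPM in the controls (adjusted p = 0.634 in the F test). The interneuron channel Kcnc2 (Kv3.2) averaged 12.6 ± 3.89 CPM with stereotypy, 18.9 ± 8.50 CPM without it and 20.5 ± 11.7 CPM in the controls, and Kcns3, which is found in parvalbumin interneurons, averaged 0.702 ± 0.483 CPM with stereotypy, 1.15 ± 0.296 CPM without it and 0.664 ± 0.433 CPM in the controls. In the controls Kcnc2 was highest in the third library (29.2 CPM), and in the no stereotypy group likewise (28.7 CPM).

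Libraries of one group differed in how often they held its highest value. The third control library had the highest value of its group for 35 of 67 genes, against 33.4% of all genes tested, and the first control library for 7 of 67, against 31.6%. In the no stereotypy group the third library was highest for 31 of 67, against 44.0% of all genes. Kcnc4, Kcna6 and Kcnip1 were among the genes with their highest value in the third no stereotypy library, at 27.9, 98.4 and 9.88 CPM.

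Genes whose products join potassium channels were read from a list of 32, of which 28 were tested. For both TrkB-deleted groups 3 rose and 1 fell, against 3.67% and 2.05% of all tested genes. Dpp10, an auxiliary subunit of Kv4 channels, averaged 102 ± 5.78 CPM with stereotypy, 87.1 ± 13.3 CPM without it and 52.4 ± 4.18 CPM in the controls, with a log2 change of 0.83 (SE 0.0990, adjusted p = 0.00115). Lgi2, of the secreted family that binds the Kv1 complex, averaged 187 ± 27.3 CPM with stereotypy, 245 ± 15.1 CPM without it and 147 ± 9.88 CPM in the controls (log2 change 0.54, adjusted p = 0.0106), and its relative Lgi1 averaged 137 ± 7.14 CPM with stereotypy, 124 ± 15.2 CPM without it and 168 ± 3.45 CPM in the controls (log2 change -0.36, adjusted p = 0.0291). Hcn4, a pacemaker channel, averaged 2.72 ± 1.05 CPM with stereotypy, 5.22 ± 1.75 CPM without it and 1.15 ± 0.623 CPM in the controls (log2 change 1.16, adjusted p = 0.0185).

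Between stereotypy and no stereotypy 3 of the 28 were higher and 2 lower, against 6.61% and 3.6% of all tested genes. Ank3, the ankyrin that anchors Kv7 channels at the axon initial segment, averaged 620.2 ± 65.0 CPM with stereotypy, 468 ± 25.1 CPM without it and 469.9 ± 29.4 CPM in the controls, a log2 difference of 0.40 (SE 0.0958, adjusted p = 0.0308). Cntnap2 and Dlg1, which cluster Kv1 channels, had log2 differences of 0.36 and 0.41 (adjusted p = 0.0447 and 0.0310). The BK gamma subunit Lrrc55 had a log2 difference of -0.87 and Lingo1 by -0.59 (adjusted p = 0.0441 and 0.0289). In the no stereotypy group against control 4 rose and 1 fell (3.76% and 3.01% of all tested genes), and in the stereotypy group 2 rose and 0 fell in limma (3.58% and 1.53%). Between the deleted groups, 0 of all 13695 genes passed without stereotypy library 3 or no stereotypy library 1 or 2. The calls of partner genes in that comparison were thus lost there too. The other-neuron covariate also left 0 of all genes. For the comparisons with control, values of the partner genes with single libraries left out are not given here.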

How the data were processed

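The values deposited by the authors are CPM (reads scaled to a common library total) for 47729 Ensembl genes in each of 9 libraries. The authors aligned reads with TopHat to GRCm38, per the submitters' processing notes. What counted the reads, with which annotation and whether by strand, is not given in the sources used here. The CPM steps gave whole reads for 100% of values (tolerance 0.1 of a read), so library totals are known. Symbols came from GENCODE M21, which matched 47224 identifiers. The 13695 genes that reached 1 CPM in 3 or more libraries were fitted in limma 3.58.1 (R 4.3.3) on log2(CPM + 1), a scale on which fold changes of weakly expressed genes are too small, with a mean per group, a trend and Benjamini-Hochberg adjustment over all of them. The threshold was 0.05, and the fit was tested on simulated counts. Genes past it in any comparison, the highest of each class and genes with a known MSN role or other cell source are named. Results of some of these genes are not reported here. edgeR 4.0.16 and DESeq2 1.42.0 on the recovered reads, other pseudocounts, filters, scaling, marker covariates and left-out libraries were the alternatives. P-values measure the spread between these libraries. Members and lists were chosen with earlier results of these data known.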

Additional observations from a re-analysis of the deposited data

Results flagged for a closer look

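In limma 12 of 67 potassium channel genes, against 10.2% of all tested genes, differed between the TrkB-deleted groups with and without stereotypy. This difference equals that of the groups' changes against the shared control libraries. The log2 difference, stereotypy minus no stereotypy, was 0.89 for Kcnj2, 0.58 for Kcna4, 0.55 for Kcnd2, 0.52 for Kcnn3 and 0.40 for Kcnab1. It was -1.22 for Kcnj6, -0.75 for Kcng2, -0.72 for Kcnk4, -0.71 for Kcnk3, -0.68 for Kcnj9, -0.66 for Kcnn1 and -0.48 for Kcnab2. None of the 12 passed without stereotypy library 2 or 3 or no stereotypy library 1 or 2, as given beside each gene in the report. With other-neuron markers as a covariate, which is hard to tell apart from the group, none of them passed either. Groups of 3 libraries are too small for a search for single outlying libraries.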

How the results depend on the processing

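The count of potassium channel genes past the threshold for stereotypy against control (7) was 3 with no filter, 0 with the glial and vascular covariate and 3 without the third library of each deleted group, and 2 to 8 with single libraries left out. For stereotypy against no stereotypy (12) it was 4 with no filter, 7 with the glial and vascular covariate, 0 with the other-neuron covariate, 22 with the 6 libraries compared alone, 21 with DESeq2, 0 without the third library of each deleted group and 0 to 22 with single libraries left out. For both groups against control (10) it was 6 with no filter, 1 with the glial and vascular covariate and 6 to 9 with single libraries left out. For any difference (21) it was 9 with no filter, 8 without the third library of each deleted group and 9 to 25 with single libraries left out. The count for no stereotypy against control (12) ran from 8 to 16. Shares over all tested genes moved as well. Between the deleted groups the share was 10.2% in the main fit, 2.18% with no filter, 14.7% with the 6 libraries compared alone and 17.1% with DESeq2. A fit of the compared libraries alone was not run for both groups or for any difference, which use all 9. With no filter more genes enter the adjustment; the other causes were not tested.

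Among the calls and the further changes that were followed through the alternatives, 4 small changes turned direction. The remaining members were not checked 1 by 1 for this. The family's median log2 change with stereotypy against control (-0.085) was 0.120 with the other-neuron covariate and 0.050 without control library 3. Kcnab1 with stereotypy (-0.02) was 0.042 with the glial covariate and -0.0300 to 0.0027 with single libraries left out. Kcnj9 with stereotypy (-0.09) was 0.080 with the other-neuron covariate, 0.0095 without the third library of each deleted group and -0.17 to 0.0095 with single libraries left out. Kcnq3 between the deleted groups (0.10) was -0.026 to 0.19 with single libraries left out, and Kcns2 (0.04) was -0.031 with the glial covariate.

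Deviations from the group mean correlated at -0.08 to 0.41 between libraries of the same replicate number. Between libraries of other numbers in different groups they correlated at -0.42 to 0.25. The labels give no batch, so what the replicate number stands for is not known. With the replicate block 8, 13, 15 and 10 genes passed in the 4 comparisons (stereotypy, no stereotypy, between the deleted groups, both) and 22 in the F test. The block ended the calls of Kcnip3 without stereotypy (adjusted p = 0.0591) and of Kcnn1 between the deleted groups (adjusted p = 0.0503) and in the F test (0.0611). Leaving out the third no stereotypy and control libraries was chosen after seeing the data. Depth was 27103152 to 31117135 reads in the stereotypy libraries and 32615356 to 40578512 reads in all others, so depth and stereotypy cannot be told apart. Genes near 1 CPM rest on few reads.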
